A study of Mus musculus with 6 samples.

Results

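The miR-106b~25 cluster is a group of 3 miRNA hairpins, Mir106b, Mir93 and Mir25, carried in an intron of Mcm7, and its 6 mature miRNAs are both arms of each hairpin. They were taken by name from a table of 1960 mature mouse miRNAs; all 6 were listed, and all 6 were among the 297 that passed the filter on low counts. The RNA came from liver immune cells of wildtype female C57BL/6J mice, aged 10 weeks, and each of the 3 groups had 2 libraries that the labels call biological replicates. The ConA+D8THC and ConA+Vehicle groups were given concanavalin A (ConA), a lectin used to set off a T-cell-driven hepatitis in mice, at 12.5 mg/kg through the retro-orbital sinus under brief isoflurane. In ConA+D8THC, delta-8-tetrahydrocannabinol (D8THC, a cannabinoid) was injected intraperitoneally at 20 mg/kg in 100 µL of DMSO/corn oil, first 15 to 18 h ahead of ConA and then 30 min following it. ConA+Vehicle had the DMSO and corn oil alone beside ConA. Vehicle had DMSO and corn oil with no ConA, and its disease state is labelled as none. How many mice stand behind a library is not stated, so p-values measure only the spread between these libraries.

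Mcm7 encodes a subunit of the replicative DNA helicase, and its transcription rises when cells enter the division cycle. The hairpins in its intron are made from the same primary transcript and are known for their part in proliferation: miR-106b-5p and miR-93-5p repress the cell cycle inhibitor Cdkn1a, and miR-25-3p represses the death-promoting gene Bcl2l11. A hairpin gives a duplex of 2 arms, of which one is usually loaded into Argonaute as the guide strand and the other, the passenger strand, is mostly degraded. A miRNA finds its targets mainly through its seed, bases 2 to 8 from its 5′ end.

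In mm10 the 3 hairpins lay on the minus strand of chromosome 5, at 138165737 to 138165818 for Mir106b, 138165523 to 138165610 for Mir93 and 138165321 to 138165404 for Mir25. All 3 fell within intron 13 of the 15-exon GENCODE transcript of Mcm7 used here (gene at 138164583 to 138172422), an intron of 748 bases, and overlapped none of its exons. The stretch from the first to the last hairpin base was 498 bases, with 126 bases between Mir106b and Mir93 and 118 between Mir93 and Mir25. The mature sequences, from RefSeq's GRCm38.p6 annotation, are shown 5′ to 3′ with the seed in capitals, because the 6 miRNAs of one transcript fall into 5 seed groups.
miR-106b-5p: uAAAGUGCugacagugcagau
miR-93-5p: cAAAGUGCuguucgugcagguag
miR-25-3p: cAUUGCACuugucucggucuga
miR-106b-3p: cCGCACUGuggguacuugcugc
miR-93-3p: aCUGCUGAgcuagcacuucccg
miR-25-5p: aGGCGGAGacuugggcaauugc

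The first 2 share the seed of the miR-17 family, and miR-25-3p has the seed of the miR-92a family. Members of the paralogous clusters miR-17~92 and miR-106a/miR-363 that carry the same seeds are shown for comparison, since reads of such similar miRNAs can be hard to assign.
miR-17-5p: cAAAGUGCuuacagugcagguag
miR-20a-5p: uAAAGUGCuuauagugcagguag
miR-20b-5p: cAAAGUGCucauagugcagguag
miR-106a-5p: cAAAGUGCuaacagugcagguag
miR-92a-3p: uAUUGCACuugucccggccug

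The nearest listed miRNA to miR-93-5p was miR-17-5p, at 3 single-base edits (substitutions, insertions or deletions). miR-25-3p was 4 edits from miR-92a-3p, and miR-106b-5p was 5 edits from miR-106a-5p. The other arms, miR-106b-3p, miR-93-3p and miR-25-5p, were 6 or more edits from any other listed miRNA.

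Library totals ran from 322764 to 1172389 counts, lowest in the 2 ConA+Vehicle libraries, and the cluster took 4105 to 15164 of them. miR-142a arms, which mark all haematopoietic cells, took 7.72% to 11.2% of counts in ConA+D8THC, 9.03% to 10.3% in ConA+Vehicle and 2.53% to 7.31% in Vehicle, so leukocyte RNA was present in each library. Markers of other cell types were present as well. The 2 endothelial markers took 20.7% to 26.7% of counts in ConA+D8THC, 12.8% to 13.2% in ConA+Vehicle and 32.7% to 34.2% in Vehicle. The 6 hepatocyte markers took 5.18% to 7.15%, 17.1% to 19.7% and 8.35% to 13.9% in the same order of groups, and the 4 myeloid markers 1.48% to 2.18%, 2.76% to 2.92% and 0.348% to 0.365%. Single myeloid markers went opposite ways by edgeR. Of the 4, 2 rose and 2 fell in ConA+Vehicle against Vehicle, while 2 rose and 1 fell in ConA+D8THC against Vehicle. The 6 hepatocyte markers were split too in ConA+Vehicle against Vehicle, with 4 called higher and 1 lower. In ConA+D8THC, 0 of them were called higher and 4 lower, both against Vehicle and against ConA+Vehicle. The 4 lymphocyte markers took 0.607% to 0.999%, 0.834% to 1.08% and 0.517% to 0.763%, and the 4 erythroid markers 0.0439% to 0.0557%, 0.0855% to 0.180% and 0.0434% to 0.103%. Stellate cell and fibroblast markers (5) and bile duct epithelium markers (5) took at most 1.32% and 0.509% of any library. No marker was at 0 in any library. The part of these shifts in the results below was not tested; with the hepatocyte and endothelial markers left out, the log2 fold changes of miR-93-5p were 1.23 in ConA+Vehicle against Vehicle and 1.41 in ConA+D8THC against Vehicle, and those of miR-25-3p 1.06 and 1.15. In such bulk samples, fewer cells of a type and less RNA per cell cannot be told apart.

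The cluster as a whole stood higher in each ConA library than in either Vehicle library. Its 6 miRNAs together had 15649 and 11825 CPM (the field's unit of counts scaled by library size, here with TMM factors) in ConA+D8THC replicates 1 and 2 and 14184 and 13586 CPM in ConA+Vehicle replicates 1 and 2, against 6966 and 5205 CPM in Vehicle replicates 1 and 2. The 4 libraries from ConA-treated mice did not overlap with the 2 Vehicle libraries. The group means were 13737 ± 2704, 13885 ± 423 and 6086 ± 1245 CPM (SD, n = 2) in the same order. A single value compared between 2 and 2 libraries cannot give an exact two-sided permutation p below 0.333, so the sum is given without a test.

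Almost all of this came from 2 guide strands. miR-93-5p held 62.6% and 62.0% of the cluster's counts in ConA+D8THC, 60.6% and 61.2% in ConA+Vehicle and 58.3% and 56.9% in Vehicle. miR-25-3p held 36.2% and 36.8%, 37.9% and 37.4%, and 39.5% and 41.2% in the same order. Both arms of miR-106b and the passenger strands miR-93-3p and miR-25-5p held the remainder, each with 1.07% or less of the cluster in any library. Levels of different miRNAs depend on how well each sequence is captured in library preparation, so the order of levels is that of these counts.

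**Figure D1:**
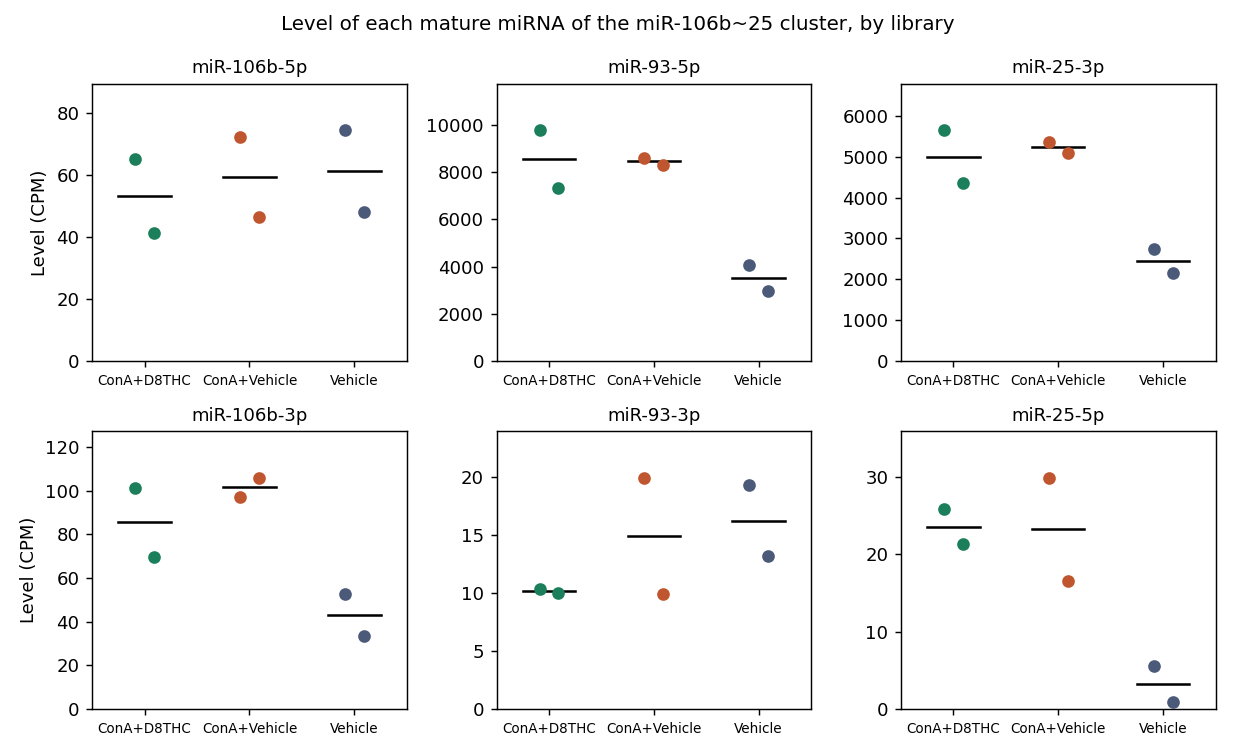
Level in CPM (y axis, linear, starting at 0 in each panel) of each mature miRNA of the cluster in ConA+D8THC, ConA+Vehicle and Vehicle libraries. Points are libraries, replicate 1 left of replicate 2, and black lines are group means; miR-93-5p, miR-25-3p, miR-106b-3p and miR-25-5p sit higher in all 4 ConA libraries than in either Vehicle library, while miR-106b-5p spans 41.3 to 74.5 CPM with all 3 groups overlapping.

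The first comparison, ConA+Vehicle against Vehicle, asks how the cluster differed in mice with ConA hepatitis. 4 of the 6 members rose, both dominant guide strands, miR-106b-3p and miR-25-5p, and none fell. miR-106b-5p, made from the same hairpin as miR-106b-3p, was not called, at log2 -0.02 ± 0.41 (SE). These arms were not tested against each other. Each was set against the sum of its hairpin, itself included, by edgeR's diffSpliceDGE. This put miR-106b-5p at log2 -0.66 (adjusted p = 0.652) and miR-106b-3p at 0.62 (adjusted p = 0.669), so that neither was called. Over all 297 miRNAs tested by edgeR's quasi-likelihood test with Benjamini-Hochberg adjustment, 36.7% were called at an adjusted p under 0.05, 19.9% higher and 16.8% lower. The members' median log2 fold change was 1.18, beside 0.10 over all miRNAs tested. The 4 members that rose also had libraries that did not overlap between the groups, beside 67.3% of all miRNAs tested (38.0% higher and 29.3% lower). These counts of 4 and the members' median include miR-25-5p, which passed the filter on low counts through the ConA groups alone. They are therefore a description only.

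miR-93-5p, one of the 2 members with the miR-17 family seed, had 8594 and 8320 CPM in ConA+Vehicle replicates 1 and 2, against 4061 and 2963 CPM in Vehicle replicates 1 and 2. Each ConA+Vehicle library was above both Vehicle libraries, and in rank it stood 20th and 22nd of all miRNAs in ConA+Vehicle and 33rd and 42nd in Vehicle. The increase was 2.41-fold (log2 1.27 ± 0.24 SE, adjusted p = 0.00200 by edgeR).

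miR-25-3p, which carries the miR-92a family seed, had 5370 and 5087 CPM in ConA+Vehicle, against 2753 and 2147 CPM in Vehicle. The groups were again separate, and the increase was 2.13-fold (log2 1.09 ± 0.22 SE, adjusted p = 0.00332 by edgeR). The 2 guide strands were called in this comparison under each of the 13 alternative settings run for them.

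The hairpin of miR-106b gave 2 mature miRNAs of similar level. miR-106b-3p had 97.2 and 106 CPM in ConA+Vehicle, from 39 and 32 counts, against 52.4 and 33.3 CPM in Vehicle, from 38 counts in each library. It rose 2.39-fold (log2 1.26 ± 0.38 SE, adjusted p = 0.0226 by edgeR). This call ended without Vehicle replicate 2 (adjusted p = 0.100), without ConA+Vehicle replicate 1 (0.0596), without ConA+Vehicle replicate 2 (0.0606) and with DESeq2 (0.0726); the alternatives spanned 0.00182 to 0.100.

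miR-106b-5p had 72.3 and 46.3 CPM in ConA+Vehicle, from 29 and 14 counts, against 74.5 and 48.2 CPM in Vehicle, from 54 and 55 counts. The groups overlapped fully (adjusted p = 0.987 by edgeR), and the 95% interval of the log2 difference ran from -0.91 to 0.88. The log2 fold change of miR-93-5p, 1.27, lay outside it, but the interval of miR-93-5p, from 0.75 to 1.79, overlapped with it.

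The passenger strands of the 2 abundant hairpins were rare. miR-25-5p had 12 and 5 counts in ConA+Vehicle (29.9 and 16.5 CPM), against 4 and 1 counts in Vehicle (5.52 and 0.877 CPM). It was called higher (log2 3.04 ± 0.74 SE, adjusted p = 0.00835 by edgeR), and the ratio of the summed counts over library size was 9.02, with a 95% counting interval of 3.19 to 31.3. It passed the filter on low counts through the ConA groups alone, with neither Vehicle library at the minimum of 10 counts at the median library size. Its place among the members that rose is therefore a description only. With only the 4 libraries compared it failed the filter and was not tested, so 12 alternatives were run for it. With no filter it was called (adjusted p = 0.00177 by edgeR). Leaving out ConA+Vehicle replicate 1 ended the call (adjusted p = 0.0912; the alternatives spanned 0.000357 to 0.0912), and the log2 fold change was 4.49 without Vehicle replicate 1 and 2.08 without Vehicle replicate 2.

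miR-93-3p had 8 and 3 counts in ConA+Vehicle (19.9 and 9.93 CPM), against 14 and 15 counts in Vehicle (19.3 and 13.1 CPM). The groups overlapped (log2 -0.03 ± 0.54 SE, adjusted p = 0.987 by edgeR). The 95% interval from -1.22 to 1.16 is wide enough to hold a 2-fold change either way.

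**Figure D2:**
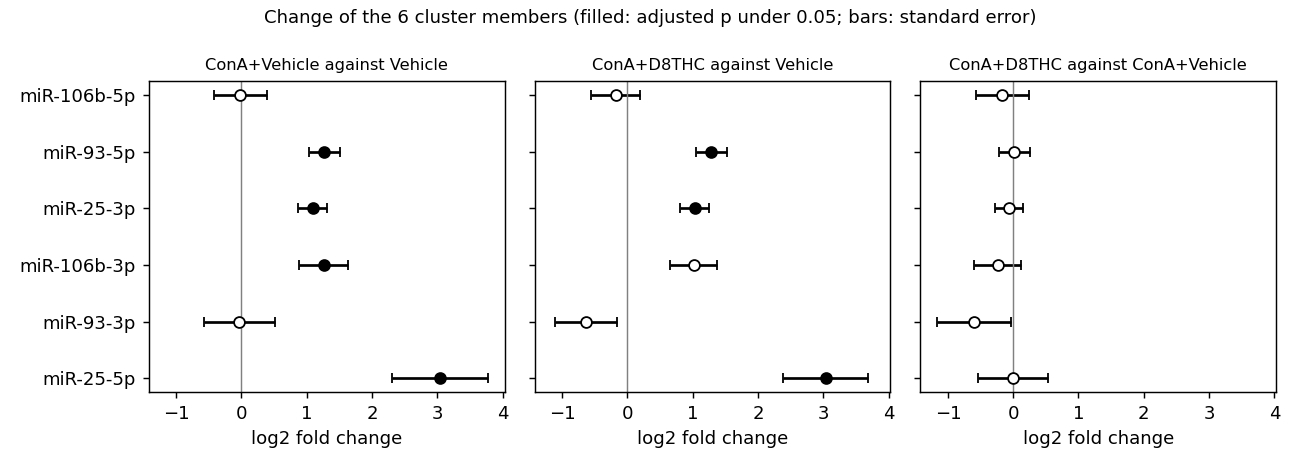
Log2 fold change (x axis) of the 6 members in the 3 comparisons, with standard errors from the edgeR fit as bars and called members (adjusted p under 0.05) as filled points. In both comparisons with Vehicle, miR-93-5p, miR-25-3p and miR-25-5p are filled and right of 0 while miR-106b-5p and miR-93-3p are open; against ConA+Vehicle, all 6 are open.

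ConA+D8THC was compared with Vehicle, with the same 2 Vehicle libraries as above. 3 of the 6 members rose and none fell, beside 32.7% of all 297 miRNAs called, 18.5% higher and 14.1% lower. The members' median log2 fold change was 1.02, beside -0.06 over all miRNAs tested. Libraries were separate for 4 members in the higher direction and for 1 in the lower direction, beside 74.7% of all miRNAs (37.7% higher and 37.0% lower). The members that rose, their median and the 4 separate members include miR-25-5p, which passed the filter through the ConA groups alone. The 1 in the lower direction was miR-93-3p, with neither ConA+D8THC library at the minimum of the filter. These counts and the median are therefore a description only.

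miR-93-5p had 9789 and 7335 CPM in ConA+D8THC, against the Vehicle levels given above, and rose 2.44-fold (log2 1.29 ± 0.24 SE, adjusted p = 0.00293 by edgeR). miR-25-3p had 5657 and 4348 CPM and rose 2.04-fold (log2 1.03 ± 0.22 SE, adjusted p = 0.00664). Both guide strands were above both Vehicle libraries in each ConA+D8THC library and were called in all 13 alternatives.

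miR-25-5p, from 25 and 15 counts in ConA+D8THC (25.8 and 21.3 CPM), was also called higher (log2 3.04 ± 0.65 SE, adjusted p = 0.00664 by edgeR), in all 13 alternatives too. Neither Vehicle library (4 and 1 counts) reached the minimum of the filter, so miR-25-5p was tested through the ConA groups alone. Its call, and its place among the members that rose, are a description only. The ratio of its summed counts over library size was 8.93 against Vehicle, with a 95% counting interval of 3.52 to 29.0. Its log2 fold change was 4.50 without Vehicle replicate 1 and 2.10 without Vehicle replicate 2.

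Neither miR-106b arm was called. miR-106b-3p had 101 and 69.7 CPM in ConA+D8THC, from 98 and 49 counts, and stood above both Vehicle libraries without passing the threshold (log2 1.02 ± 0.36 SE, adjusted p = 0.0519 by edgeR). It was called in 7 of the 13 alternatives, with adjusted p-values from 0.00936 to 0.346 over them; the lowest was with the replicate number as a block. miR-106b-5p had 65.0 and 41.3 CPM, from 63 and 29 counts, and overlapped with Vehicle (log2 -0.18 ± 0.38 SE, adjusted p = 0.727). miR-93-3p had 10 and 7 counts (10.3 and 9.96 CPM), below both Vehicle libraries but not called (log2 -0.63 ± 0.48 SE, adjusted p = 0.311). With neither ConA+D8THC library at the minimum of the filter, its place below Vehicle is a description only.

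ConA+D8THC was then compared with ConA+Vehicle to ask whether D8THC moved the cluster in mice given ConA; it shares its libraries with the 2 comparisons above. None of the 6 members was called by edgeR, none had an unadjusted p under 0.05, and DESeq2 called none of them. Over all 297 miRNAs, edgeR called 3.70%, 0 higher and 11 lower, 56 had an unadjusted p under 0.05, and DESeq2 called 17, 5 higher and 12 lower. Of edgeR's 11 lower calls, 4 were hepatocyte markers. The split of edgeR's calls moved to 5 higher and 9 lower with the hepatocyte and endothelial markers left out. miR-93-5p averaged 8562 ± 1735 CPM in ConA+D8THC and 8457 ± 194 CPM in ConA+Vehicle (SD, n = 2 each), a log2 difference of 0.02 with a 95% interval from -0.50 to 0.53. miR-25-3p averaged 5002 ± 926 CPM in ConA+D8THC and 5229 ± 201 CPM in ConA+Vehicle, a log2 difference of -0.06 with an interval from -0.55 to 0.42. For these 2 abundant guide strands the interval left out a 2-fold change in either direction.

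The 4 rarer members were measured less closely. Their log2 differences were -0.24 for miR-106b-3p (interval -1.04 to 0.56), -0.16 for miR-106b-5p (-1.07 to 0.74), -0.60 for miR-93-3p (-1.87 to 0.66) and -0.01 for miR-25-5p (-1.20 to 1.18). Libraries of the 2 groups overlapped for all 6 members, beside 46.8% of all miRNAs whose libraries did not overlap. Differences within these intervals cannot be told from 0 with these libraries. Several of these signs turned with another scaling or without 1 library.

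Ratios of counts within a library do not depend on library size and show which members moved together. miR-93-5p had 1.73 and 1.69 counts per count of miR-25-3p in ConA+D8THC, 1.60 and 1.64 in ConA+Vehicle, and 1.48 and 1.38 in Vehicle. The 2 guide strands thus kept to a narrow ratio, with Vehicle lowest. Per count of miR-106b-5p, miR-93-5p had 151 and 178 counts in ConA+D8THC and 119 and 180 in ConA+Vehicle, against 54.5 and 61.5 in Vehicle. Here the ConA libraries lay well apart from the Vehicle libraries. Per count of miR-106b-3p the values were closer, at 96.8 and 105 in ConA+D8THC, 88.4 and 78.6 in ConA+Vehicle, and 77.4 and 88.9 in Vehicle.

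Whether a member's change differed from the summed change of its cluster was tested with edgeR's diffSpliceDGE, with genomic clusters of hairpins in the place of genes and mature miRNAs in the place of exons, over 134 miRNAs in 50 clusters. With ConA+D8THC set against Vehicle, miR-106b-5p lay below the cluster (log2 -1.35 ± 0.38 SE, adjusted p = 0.0445), as did miR-93-3p (log2 -1.81 ± 0.48 SE, adjusted p = 0.0394), beside 4.48% of the 134 that were called in either direction. miR-25-5p lay above the cluster without passing (log2 1.86 ± 0.58 SE, adjusted p = 0.0694), and miR-106b-3p was at log2 -0.16 ± 0.39. For miR-93-3p, 0 ConA+D8THC libraries were at the minimum of the filter on low counts, beside 1 of Vehicle and 1 of ConA+Vehicle. For miR-25-5p, neither Vehicle library was at that minimum. The values of miR-93-3p and miR-25-5p in this test are therefore a description only. The call of miR-106b-5p ended in 10 of 13 alternatives, in a range of 0.00843 to 0.653, and that of miR-93-3p in 9 of 13, in a range of 0.0110 to 0.232. Leaving out any 1 of the 6 libraries ended the call of miR-106b-5p (adjusted p from 0.0549 to 0.294). Leaving out any 1 library other than ConA+Vehicle replicate 2 ended that of miR-93-3p (adjusted p from 0.0647 to 0.232). Both differences kept their sign in the 13 alternatives. The alternative with hairpins in place of clusters sets an arm against another sum, so it is a different measure and not a repeat of this test.

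In ConA+Vehicle against Vehicle the same test called 0 of the 134 miRNAs; at an unadjusted p under 0.05 there were 18, of which 3 were members. miR-106b-5p was at log2 -1.21 ± 0.40 relative to the cluster (adjusted p = 0.169), miR-93-3p at -1.22 ± 0.52 (0.305), miR-25-5p at 1.85 ± 0.64 (0.169) and miR-106b-3p at 0.07 ± 0.38 (0.999). miR-25-5p, 1 of the 3 members at an unadjusted p under 0.05, passed the filter through the ConA groups alone, so its value is a description only. In ConA+D8THC against ConA+Vehicle the cluster test called 0 of 134, with 3 at an unadjusted p under 0.05 and no member among them.

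The balance of the arms within each hairpin was set beside this. miR-106b-5p made up 39.1% (95% Wilson interval 31.9% to 46.8%) and 37.2% (27.3% to 48.3%) of its hairpin's counts in ConA+D8THC, and 42.6% (31.6% to 54.5%) and 30.4% (19.1% to 44.8%) in ConA+Vehicle. In Vehicle it made up 58.7% (48.5% to 68.2%) and 59.1% (49.0% to 68.6%). So miR-106b-5p was the larger arm in both Vehicle libraries and the smaller one in all 4 ConA libraries, from 46 to 161 counts of the hairpin per library. Intervals cover counting error only, and those of ConA+Vehicle replicate 1 and the Vehicle libraries overlap. When each arm was tested against the sum of its own hairpin, miR-106b-5p was not called in ConA+D8THC against Vehicle (log2 -0.61, adjusted p = 0.653) or in ConA+Vehicle against Vehicle (log2 -0.66, adjusted p = 0.652). That sum includes the tested arm, and both arms had similar counts, so it takes up part of any difference between them. The test therefore does not decide on the shift in share, and the arms were not tested against each other.

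The other hairpins were dominated by one arm in each library. miR-93-3p made up 0.105% and 0.136% of the Mir93 counts in ConA+D8THC, 0.232% and 0.119% in ConA+Vehicle, and 0.473% and 0.442% in Vehicle. miR-25-5p made up 0.454% and 0.488% of the Mir25 counts in ConA+D8THC, 0.554% and 0.324% in ConA+Vehicle, and 0.200% and 0.0408% in Vehicle. The minor arm's share was lower for Mir93 and higher for Mir25 in each ConA library than in either Vehicle library, but the counting intervals overlapped in part. Those of miR-93-3p in ConA+Vehicle replicates 1 (0.117% to 0.456%) and 2 (0.0405% to 0.350%) overlapped those of both Vehicle libraries (0.282% to 0.793% and 0.268% to 0.728%). The interval of miR-93-3p in ConA+D8THC replicate 2 (0.0657% to 0.280%) overlapped that of Vehicle replicate 2. That of miR-25-5p in Vehicle replicate 1 (0.0778% to 0.513%) overlapped those of all 4 ConA libraries. Its interval in Vehicle replicate 2 (0.00721% to 0.231%) overlapped that of ConA+Vehicle replicate 2 (0.139% to 0.757%). Against the sum of its own hairpin in ConA+D8THC against Vehicle, miR-93-3p was at log2 -1.91 (adjusted p = 0.0626) and miR-25-5p at 2.00 (adjusted p = 0.0689), so that neither was called. In the group where each was low, neither library reached the minimum of the filter, so these values are a description only.

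**Figure D3:**
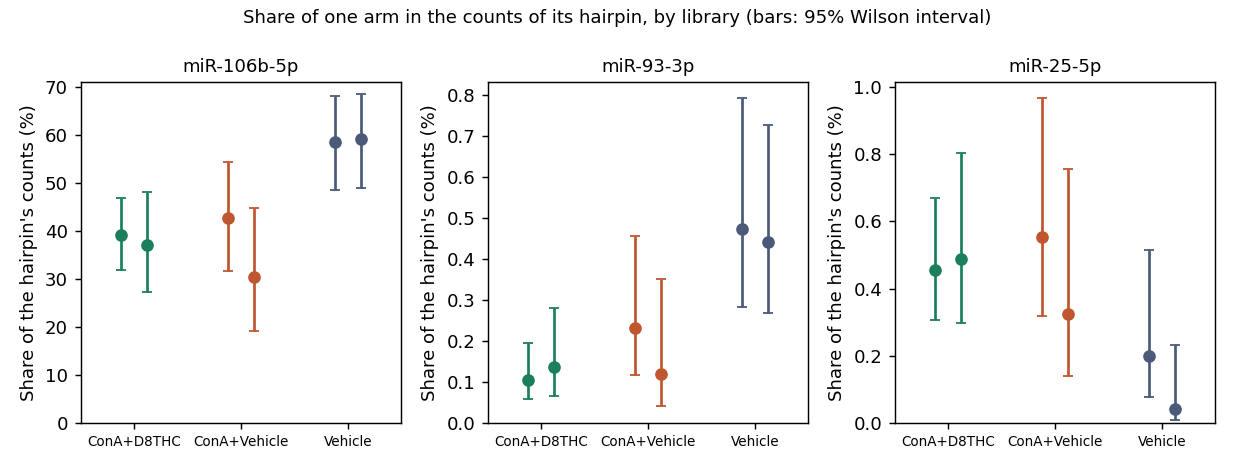
Share of one arm in all counts of its hairpin (y axis, percent, starting at 0) in the 2 libraries of each group, with 95% Wilson intervals as bars. miR-106b-5p lies at 30.4% to 42.6% in the 4 ConA libraries and at 58.7% and 59.1% in Vehicle; the shares of miR-93-3p and miR-25-5p stay under 1% throughout.

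The cluster was set beside its 2 paralogs, miR-17~92 and miR-106a/miR-363, which are thought to share an ancestor with it and carry 2 of its seeds. Over all 297 miRNAs tested, 19.9% were called higher in ConA+Vehicle against Vehicle and 18.5% in ConA+D8THC against Vehicle. Their median log2 fold changes were 0.10 and -0.06. Of the 12 mature miRNAs listed for miR-17~92, 8 were tested and 8 rose in ConA+Vehicle against Vehicle, with a median log2 fold change of 1.71 in a range of 1.47 to 2.49. Of the 12 listed for miR-106a/miR-363, 6 were tested and 6 rose, with a median of 2.49 and a lowest value of 1.74; miR-19b-3p and miR-92a-3p are made from both clusters and count in each. The members of miR-106b~25 ranged from -0.03 to 3.04 around a median of 1.18, and the log2 fold changes of its abundant guide strands were below those of all tested members of both paralogs in this comparison. The 8 and the 6 rose again in ConA+D8THC against Vehicle, with medians of 1.45 and 2.04, beside 1.02 for miR-106b~25. There miR-93-5p, at 1.29, was above miR-17-5p (1.03), miR-20a-5p (1.19) and miR-19b-3p (1.24), so that this order of the clusters was not kept member by member. In ConA+D8THC against ConA+Vehicle none of the tested members of the paralogs was called by edgeR, and their medians were -0.39 and -0.28, beside -0.11 for miR-106b~25. The filter keeps a miRNA that reaches the minimum in 1 group alone, so these counts and medians over tested members are a description only, and the difference between the clusters was not tested.

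miRNAs with the seeds of the guide strands were mostly higher too in ConA+Vehicle against Vehicle, where 19.9% of all miRNAs tested were called higher. Outside the cluster, 4 miRNAs with the seed of miR-93-5p were tested, and 4 rose. miR-20a-5p, the most abundant of them, averaged 3294 ± 1138 CPM in ConA+Vehicle and 1034 ± 495 CPM in Vehicle (SD, n = 2 each), a 3.19-fold increase (adjusted p = 0.00941 by edgeR). miR-20b-5p averaged 1568 ± 163 CPM in ConA+Vehicle and 197 ± 39.4 CPM in Vehicle, an increase of 7.98-fold (adjusted p = 6.14e-05). miR-17-5p rose 2.78-fold and miR-106a-5p 5.51-fold, so that miR-106b-5p was the single tested miRNA with this seed that was not called. Of 3 tested miRNAs with the seed of miR-25-3p outside the cluster, 2 rose, miR-92a-3p by 3.35-fold (adjusted p = 0.000379) and miR-363-3p by 5.70-fold (adjusted p = 0.00318). miR-32-5p averaged 156 ± 13.0 CPM in ConA+Vehicle and 99.9 ± 83.1 CPM in Vehicle and was not called (adjusted p = 0.391).

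**Figure D4:**
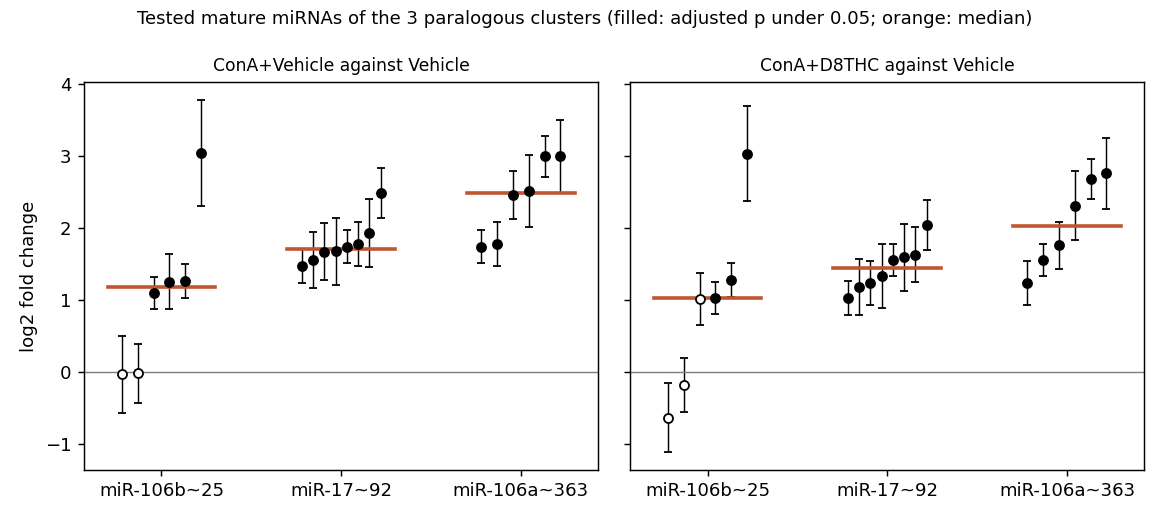
Log2 fold change (y axis) of the tested mature miRNAs of the 3 paralogous clusters against Vehicle, in order of size within a cluster, with standard errors as bars, called miRNAs filled and the median of each cluster as an orange line. The medians for miR-106b~25, miR-17~92 and miR-106a/miR-363 are 1.18, 1.71 and 2.49 in ConA+Vehicle and 1.02, 1.45 and 2.04 in ConA+D8THC, and only miR-106b~25 holds open points. The median of miR-106b~25 includes miR-25-5p, which passed the filter on low counts through the ConA groups alone.

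Among the 146 other miRNAs with a mean of at least 100 CPM, the profile most like that of miR-93-5p over the 6 libraries was that of its cluster mate miR-25-3p, with a root mean square difference of 0.11 on the log2 scale after centring each profile on its own mean. These are distances over libraries that share depth and scaling, with no test. The nearest miRNAs outside the cluster were miR-140-3p (0.11), miR-15b-3p (0.17) and miR-92a-3p (0.21). For miR-25-3p the nearest was miR-140-3p (0.07), followed by miR-93-5p (0.11), miR-221-3p (0.17) and miR-185-5p (0.23). miR-140-3p, which lies outside the cluster, had 1901 and 1605 CPM in ConA+D8THC, 1753 and 1718 CPM in ConA+Vehicle and 858 and 740 CPM in Vehicle. The other 4 members were under the minimum of 100 CPM and have no such neighbours here.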

How the data were processed

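The deposited values are whole-number counts, which the design text calls raw read counts and the authors obtained by aligning sequenced QIAseq miRNA libraries (6, from dissociated livers) in the GeneGlobe portal of QIAGEN, per the labels and the series' design text; the submitters' processing notes name mm10. The aligner, annotation release, use of molecular identifiers and treatment of reads that match several miRNAs are not stated.

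The analysis used edgeR 4.0.16 in R 4.3.3 (filterByExpr by group, TMM, group means over 6 libraries, robust glmQLFit, glmQLFTest), with DESeq2 1.42.0 as an alternative and matplotlib 3.10.9 for plots. Benjamini-Hochberg adjustment ran over 297 miRNAs, or over 134 in the cluster test (hairpins on one strand within 10 kb; miRNAs made from several clusters left out), which sets a miRNA against the summed counts of its cluster, itself included. A standard error is the size of the log2 fold change divided by the root of F. Scripts were tested on simulated data. Named for comparison were tested members of both paralogs, miRNAs sharing a seed, and for each member of at least 100 CPM the 3 nearest profiles, at log2(CPM + 0.5). Members, lists and tests were chosen with earlier results of these data known. RefSeq gave a sequence for all 6 members, and GENCODE M21 the Mcm7 exons. Alternatives were other scalings, no filter, DESeq2, a replicate block, 4 libraries only, hairpins for clusters, and leaving out each library.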

Additional observations from a re-analysis of the deposited data

How the results depend on the processing

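The calls of miR-93-5p and miR-25-3p against Vehicle held in all 13 alternatives run for each. With 1 library left out, 67 to 129 miRNAs were called in ConA+Vehicle against Vehicle (109 in all libraries), 8 to 40 in ConA+D8THC against ConA+Vehicle (11) and 63 to 112 in ConA+D8THC against Vehicle (97). The 67 came without ConA+Vehicle replicate 1, the 40 without Vehicle replicate 2 and the 63 without ConA+D8THC replicate 1. Cluster members called were 2 to 4 in ConA+Vehicle against Vehicle (2 without ConA+Vehicle replicate 1). Members apart from their cluster in ConA+D8THC against Vehicle were 0 to 1. That count of 2 went to 0 with library totals, no filter, hairpins in place of clusters and only the 4 libraries compared. In ConA+D8THC against ConA+Vehicle, 19 miRNAs were called with no filter, 18 with only the 4 libraries compared and 17 in DESeq2. The cluster test was not run in DESeq2.

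Replicate numbers in the labels mark no shared animal or day. Deviations of same-numbered libraries correlated at 0.0726 to 0.238 across miRNAs. With the number as a replicate block, 44 miRNAs were called in ConA+D8THC against ConA+Vehicle (12 higher, 32 lower). In ConA+D8THC against Vehicle it called 133 of all miRNAs, against 97 without it, and 4 members, miR-106b-3p among them.

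Signs that turned belonged to changes that were not called, and the cause was not tested. In ConA+Vehicle against Vehicle, library totals put miR-106b-5p at log2 0.038 and miR-93-3p at 0.018; without 1 library they ran from -0.36 to 0.30 and from -0.64 to 0.35, and miR-106b-3p relative to its cluster from -0.047 to 0.19. In ConA+D8THC against ConA+Vehicle, miR-25-3p and miR-25-5p were at 0.041 and 0.099 with RLE factors, 0.0021 and 0.047 with library totals, 0.090 and 0.15 without hepatocyte and endothelial markers, 0.0033 and 0.066 with no filter, and 0.041 and 0.12 in DESeq2. miR-106b-5p was at 0.0015 without those markers. With the replicate block, miR-93-5p was at -0.0013 and miR-25-5p at 0.024. Without 1 library, miR-106b-5p ran from -0.52 to 0.20, miR-106b-3p from -0.52 to 0.025, miR-93-5p from -0.19 to 0.24, miR-93-3p from -0.91 to 0.027, miR-25-3p from -0.25 to 0.14 and miR-25-5p from -0.28 to 0.51. In ConA+D8THC against Vehicle, miR-106b-5p ran from -0.54 to 0.17 without 1 library. There miR-106b-3p was at 0.59 relative to its hairpin and at -0.16 relative to its cluster, which are different references. Leaving out hepatocyte and endothelial markers moved the median of all miRNAs by 0.16 in ConA+D8THC against ConA+Vehicle and 0.13 against Vehicle; RLE factors moved it by -0.11 in ConA+Vehicle against Vehicle and 0.10 in ConA+D8THC against ConA+Vehicle, and library totals by 0.11 in ConA+D8THC against Vehicle.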
